A study of Mus musculus with 4 samples.

Results

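The vacuolar proton pump (V-ATPase) acidifies lysosomes, endosomes and secretory vesicles and, in some epithelia, pumps acid out of the cell. Its cytosolic V1 sector splits ATP and drives a ring of the membrane-bound V0 sector, which carries protons across the membrane, and several subunits exist in a form found in most cells and a form restricted to a few tissues. The 10 subunit genes described here are those named Atp6v0a1, Atp6v0a2, Atp6v0a4, Atp6v0d1, Atp6v0d2, Atp6v1a, Atp6v1b1, Atp6v1b2, Atp6v1c1 and Atp6v1c2 in the scanner files, out of 30340 genes or targets, and they are read by 13 of 39426 non-control probes. From textbook knowledge 4 of them were taken as tissue-restricted (Atp6v0a4, Atp6v0d2, Atp6v1b1, Atp6v1c2) and 6 as ubiquitous. The genes were chosen by their calcium responses and genotype differences on these same arrays, so the values below are descriptions of them.

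The arrays hold RNA of primary keratinocytes, the epithelial cells of the epidermis, from the whole skin of C57BL/6 newborns that were Pla2g2f-/- or Pla2g2f+/+. Pla2g2f encodes a secreted phospholipase A2. The cells were released with 0.05% collagenase A, cultured for 3 days and kept for a further 48 h with 1 mM CaCl2, which induces differentiation, or without it. The 4 groups were -/- cells with calcium, -/- cells without calcium, +/+ cells with calcium and +/+ cells without calcium, with 1 array each and RNA pooled from 6 mice per genotype. Genotype and cell preparation therefore cannot be told apart, no difference has a replicate check, and no p-value is given.

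A level is the signal of a gene's brightest probe as a percent of the 75th percentile of its array. It is compared between arrays for one probe, and levels of different probes are put together only in summed levels of lists. In such a sum the brightest probes weigh most. A gene was compared where its probe was well above background, the scanner software's own call, on at least 1 of the arrays concerned. Where the other array was dim, a value under the lowest signal called well above background there, between 1.08% and 1.49% of the 75th percentile, was raised to that limit, and the difference is given as "at least". Differences are log2 differences, with calcium minus without or -/- minus +/+, and the scanner error beside them is the software's error model, which holds no spread between cultures. Between 67.0% and 68.6% of probes were well above background on each array. The keratinocyte label was checked on its markers, with all 8 identity genes well above background on the 4 arrays, and keratins Krt5 and Krt14 at 6684% to 15702% of the 75th percentile. Of these 8 genes 8 were lower in -/- cells, with a median difference of -0.44 log2 with calcium and -0.23 without, and 0 of 8 passed 2-fold. The median of all genes was also below 0, at -0.16 log2 with calcium and -0.18 without. Of the 8 genes 0 lay above that median with calcium and 2 without. With quantile scaling 6 of 8 were lower in each. Markers of other cells were present as well and differed by genotype. The summed level of 15 macrophage markers was 3996% and 2679% in -/- cells with and without calcium, against 709% and 799% in +/+ cells. The Pla2g2f probe read 8.66% and 7.29% in -/- cells with and without calcium, against 12.2% and 9.82% in +/+ cells. Which bases the allele lacks is not stated, so this probe is no check of the genotype. In a mixed culture fewer cells of a type and less RNA per cell cannot be told apart.

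The tissue-restricted subunits differed among themselves with calcium. Atp6v0a4 and Atp6v1c2, one from each sector of the pump, were several-fold higher with calcium in both genotypes, and both were higher in -/- than in +/+ cells once calcium was present. Their ubiquitous partners Atp6v0a1, Atp6v0a2 and Atp6v1c1 stayed within 1.5-fold in each calcium response. Atp6v0d2 went another way, being lower with calcium in +/+ cells only at the edge of 2-fold and near its untreated level in -/- cells. Atp6v1b1 lay close to the detection limit throughout.

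The ends of the probes that read the restricted subunits are given to show which part of the transcript each value rests on. They are the last 30 of the 60 bases of each probe, written 5′ to 3′ in the sense of the transcript, with a canonical polyadenylation signal (AATAAA) in capitals where the probe holds one.
Atp6v0a4: tgttataatcatgaaAATAAAtgtctgctt
Atp6v1c2: aagatactcacagacgttagttagagtgta
Atp6v0d2, brighter probe: taaaatcaacagctacattccaattttata
Atp6v0d2, dimmer probe: cactctctatatacacatgctatgtagaat
Atp6v1b1: gctacataaccggcaggtctacccacccat
In the mm9 positions of the files the whole probes lie on the minus strand at chr6:37998490-37998549 for Atp6v0a4, at chr12:17291566-17291625 for Atp6v1c2, and at chr4:19805367-19805426 and chr4:19804304-19804363 for Atp6v0d2. The Atp6v1b1 probe lies on the plus strand at chr6:83706880-83707858, a span of 979 bases for 60 bases of probe, so that it crosses at least 1 intron. No annotation of that build was used, and exons and UTRs are not assigned. The longest run of bases shared between any of these probes and a probe of the ubiquitous partner was 7, between Atp6v1b1 and Atp6v1b2, and it was 5 or 6 in the other pairs.

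The a subunit of the V0 sector lines the proton path and sets the membrane to which the pump is sent. The a4 form is best known from the acid-secreting intercalated cells of the kidney. Atp6v0a4 read 33.3% in -/- cells with calcium and 0.982% in -/- cells without it, against 6.33% and 0.460% in +/+ cells with and without calcium. Both untreated arrays were below the limit, so the gene was well above background with calcium only. The calcium response was at least 30.9-fold in -/- cells (at least 4.95 log2) and at least 4.24-fold in +/+ cells (at least 2.09 log2). These bounds rest on different limits, and the difference of the responses was not computed. With calcium, where both arrays measured the gene, -/- cells were 5.26-fold higher than +/+ cells (2.39 log2, scanner error 0.22). Without calcium both genotypes were dim, and no fold is given. With normexp background correction the calcium response of Atp6v0a4 was at least 3.16 log2 in -/- cells and at least 0.95 log2, under 2-fold, in +/+ cells.

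The ubiquitous a forms showed no such step. Atp6v0a1, prominent in nerve terminals and present in most cells, read 343% and 272% in -/- cells with and without calcium, against 229% and 174% in +/+ cells. Its calcium response was 1.26-fold in -/- cells and 1.32-fold in +/+ cells. It was higher in -/- cells by 0.58 log2 with calcium and by 0.64 log2 without (scanner error 0.20 each). A dimmer Atp6v0a1 probe, named after another transcript of the gene and placed at chr11:100910359-100910418, went against this, with -/- cells lower by 0.52 log2 with calcium and by 0.77 without. Its levels were 3.15% and 2.79% in -/- cells with and without calcium, against 4.52% and 4.76% in +/+ cells, so the genotype difference of Atp6v0a1 depends on the probe. Atp6v0a2, the a form of the Golgi and early endosomes, read 87.5% and 65.9% in -/- cells with and without calcium, against 76.6% and 59.7% in +/+ cells. Its calcium responses were 0.41 log2 in -/- cells and 0.36 log2 in +/+ cells.

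**Figure D1:**
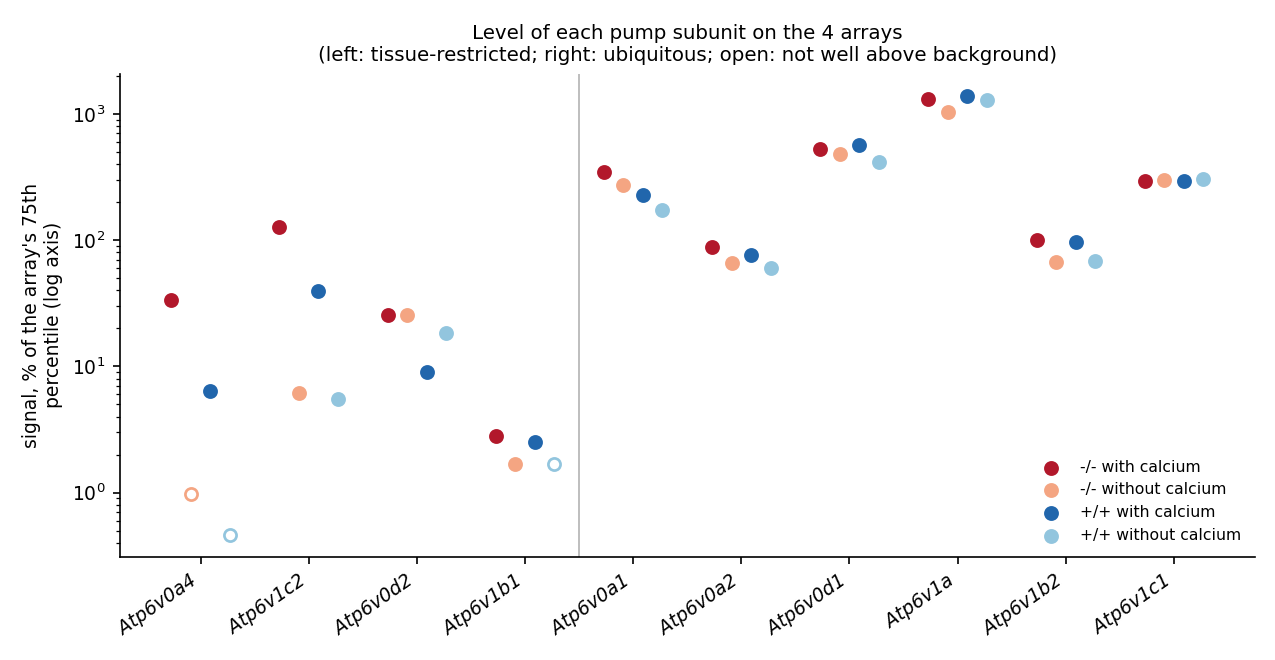
Signal of the brightest probe of each of the 10 subunits as a percent of the 75th percentile of its array (log axis), 1 point for each array, open where not well above background. Atp6v0a4 and Atp6v1c2 separate the arrays with calcium from those without, at 33.3% and 6.33% against 0.982% and 0.460% for Atp6v0a4, while the ubiquitous subunits stay close together.

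The C subunit clamps the V1 sector to the V0 sector and lets go when the pump is taken apart. Its C2 form was described in lung and kidney, and the C1 form is found in most tissues. Atp6v1c2 read 128% in -/- cells with calcium and 6.12% in -/- cells without it, against 39.7% and 5.51% in +/+ cells with and without calcium. The arrays with calcium were both above those without, and the untreated levels of the genotypes lay close to each other. The calcium response was 20.9-fold in -/- cells (4.39 log2, scanner error 0.22), rank 9 from the top among 19964 genes measured on both arrays. In +/+ cells it was 7.20-fold (2.85 log2, scanner error 0.23), rank 67 among 19767 genes. With normexp correction the responses of Atp6v1c2 were 3.80 and 2.26 log2. The response was 2.91-fold larger in -/- than in +/+ cells (1.54 log2, scanner error 0.32), between 1.44 and 1.54 log2 under each of the other scalings, the other background correction and the authors' value table. With calcium -/- cells were 3.22-fold higher than +/+ cells (1.69 log2, scanner error 0.20), and without calcium 1.11-fold (0.15 log2, scanner error 0.24). Atp6v1c1 read 291% and 297% in -/- cells with and without calcium, against 291% and 304% in +/+ cells, a range of under 5% over the arrays.

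The d subunit is the collar that couples the rotor of V1 to the ring of V0. The d2 form is known from osteoclasts and macrophages and is found in kidney, and d1 is present in most cells. Atp6v0d2 read 25.3% and 25.6% in -/- cells with and without calcium, against 9.05% and 18.3% in +/+ cells. Both -/- arrays thus stood above both +/+ arrays, and the +/+ array with calcium was the lowest. The calcium response was -0.01 log2 in -/- cells and -1.02 log2 (2.02-fold lower, scanner error 0.21) in +/+ cells. The dimmer probe gave 0.26 and -0.94 log2. With calcium -/- cells were higher by 2.80-fold (1.48 log2, scanner error 0.21), and by 1.74 log2 with the dimmer probe. Without calcium they were higher by 0.48 log2, and by 0.54 with the dimmer probe. The response difference of 1.00 log2 lay on the 2-fold line. Atp6v0d1 read 523% and 478% in -/- cells with and without calcium, against 563% and 416% in +/+ cells, with responses of 0.13 and 0.44 log2.

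Marker lists of cells that could bring Atp6v0d2 into the culture differed between the same arrays. Of all genes 6.55% with calcium and 4.65% without were at least 2-fold higher in -/- cells, and 3.05% and 4.32% lower. With calcium 13 of 15 macrophage markers were at least 2-fold higher in -/- cells (median 3.16 log2), and without calcium also 13 of 15 (median 1.89), against 1.48 and 0.48 for Atp6v0d2. Of the macrophage markers Adgre1 read 103% and 57.8% in -/- cells with and without calcium, against 6.22% and 11.8% in +/+ cells. The macrophage median calcium response was 0.74 log2 in -/- cells and -0.19 in +/+ cells. Fibroblast markers, a list added after the values of Atp6v0d2 were seen, were past 2-fold in -/- cells for 8 of 11 with calcium (median 1.27) and for 1 of 11 without (median 0.72). Their median calcium response was 0.13 log2 in -/- cells and -0.24 in +/+ cells, and their summed level was 23398% and 21894% in -/- cells with and without calcium, against 12168% and 13768% in +/+ cells. Osteoclast markers had a median of 0.27 log2 with calcium and -0.18 without, with 0 past 2-fold with calcium and 1 of 8, lower in -/- cells, without. The cathepsin Ctsk read 3794% and 3611% in -/- cells with and without calcium, against 2010% and 2453% in +/+ cells, and the calcitonin receptor Calcr was not well above background on any. The summed osteoclast level, most of it Ctsk on each array, was 4418% and 4274% in -/- cells with and without calcium, against 2415% and 3071% in +/+ cells. Mast cell and adipocyte markers were also past 2-fold in -/- cells, for 7 of 7 compared in each list, with and without calcium. The part of all these cells in the Atp6v0d2 signal was not tested.

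**Figure D2:**
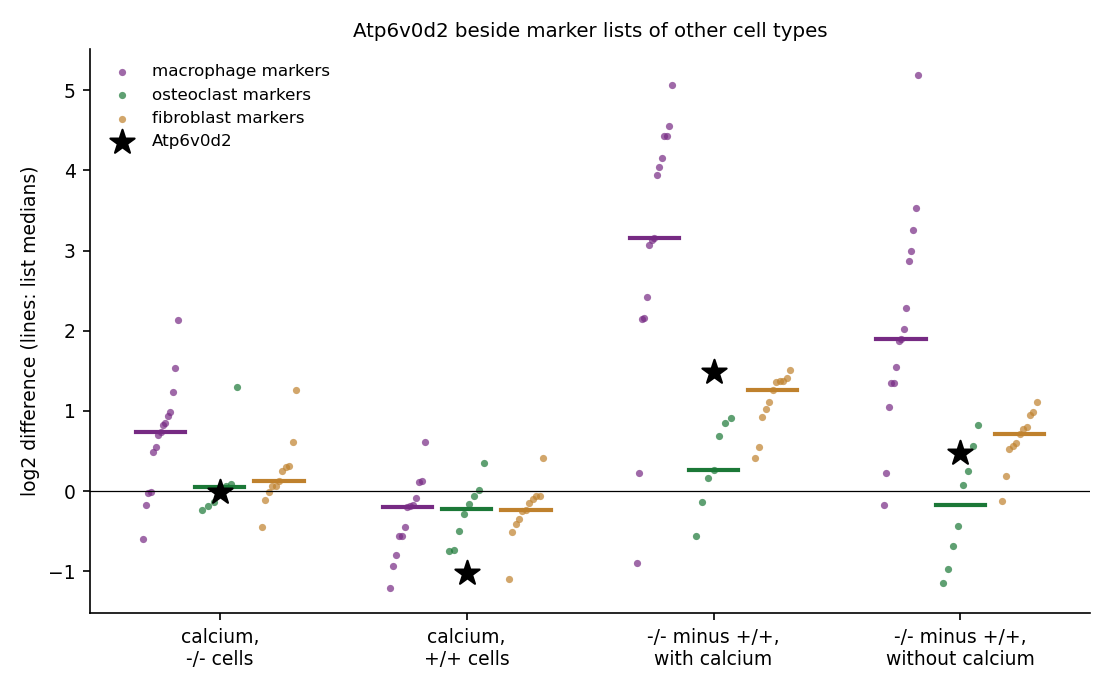
Log2 differences of Atp6v0d2 (stars) beside macrophage, osteoclast and fibroblast markers (points, with list medians as lines) for the calcium responses and the genotype differences. With calcium Atp6v0d2 is 1.48 log2 higher in -/- cells, below the macrophage median of 3.16 and near the fibroblast median of 1.27. In the +/+ calcium response it is -1.02, below the macrophage (-0.19), osteoclast (-0.22) and fibroblast (-0.24) medians. The fibroblast list was added after the values of Atp6v0d2 were seen.

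The A and B subunits form the ATP-splitting head of V1. The B1 form belongs to intercalated cells and the inner ear, while A and B2 are found in most cells. Atp6v1b1 read 2.79% and 1.67% in -/- cells with and without calcium, against 2.52% and 1.68% in +/+ cells. These levels are close to the limit, and the untreated +/+ array was not well above background. The calcium response was 0.73 log2 (1.66-fold) in -/- cells with a scanner error of 0.40, and 0.59 log2 with an error of 0.51 in +/+ cells. The untreated +/+ value lay above the limit of 1.49% and was not raised, so this is a plain difference with 1 dim array. With normexp correction these were 0.17 and 0.04 log2. Atp6v1b2 read 99.8% and 66.9% in -/- cells with and without calcium, against 96.6% and 68.0% in +/+ cells. Its responses of 0.58 log2 in -/- cells and 0.51 log2 in +/+ cells (1.49-fold and 1.42-fold) were the largest in either genotype among the ubiquitous subunits. Atp6v1a, the catalytic subunit, read 1308% and 1031% in -/- cells with and without calcium, against 1396% and 1283% in +/+ cells, with responses of 0.34 and 0.12 log2. Its second probe gave 0.20 and 0.15.

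Markers of intercalated cells, which carry a4 and B1 together, were partly dim. Of 10 markers 7 were well above background on each -/- array and 6 on each +/+ array. The anion exchanger pendrin (Slc26a4) and the cell surface protein Hepacam2 were not well above background on any array. The forkhead factor Foxi1, which drives that cell type, read 3.37% and 2.95% in -/- cells with and without calcium, against 3.80% and 4.08% in +/+ cells. The ammonia channel Rhbg was 2.92-fold higher with calcium in -/- cells (1.55 log2) and 0.79 log2 higher in +/+ cells. By genotype 9.6% of all genes with calcium and 8.97% without passed 2-fold either way. Of 7 markers compared 2 passed, 1 in each direction, both with calcium (median 0.01 log2) and without (median -0.12). The higher one was the receptor Kit, also on the mast cell list, at 84.2% and 103% in -/- cells with and without calcium, against 30.8% and 34.9% in +/+ cells. The lower one was the ammonia channel Rhcg, by 1.04 log2 with calcium and 1.33 without (differences of -1.04 and -1.33). The summed level of the list, Kit included, was 114% and 125% in -/- cells with and without calcium, against 60.4% and 62.8% in +/+ cells.

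Set against all genes, 2 of the 10 subunits were at least 2-fold higher with calcium in -/- cells and 0 lower, where 2.99% and 0.602% of 21428 genes were (3.59% either way). In +/+ cells 2 were higher and 1 lower, where 2.47% and 1.01% of 21130 genes were (3.48% either way). Of the 6 ubiquitous subunits 0 passed 2-fold in either genotype. Their median response was 0.34 log2 in -/- cells and 0.38 in +/+ cells, against medians of all genes of -0.03 and -0.07, and 5 of 6 were above 0 in each genotype. The exception was Atp6v1c1, at -0.03 and -0.06 log2. The response difference was at least 2-fold for 2 of the 8 subunits measured on all arrays, Atp6v1c2 and Atp6v0d2, both above 0, where 1.91% of 19227 genes were above and 0.629% below (2.54% either way). Since the genes were picked for these patterns, nothing is read from the counts.

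**Figure D3:**
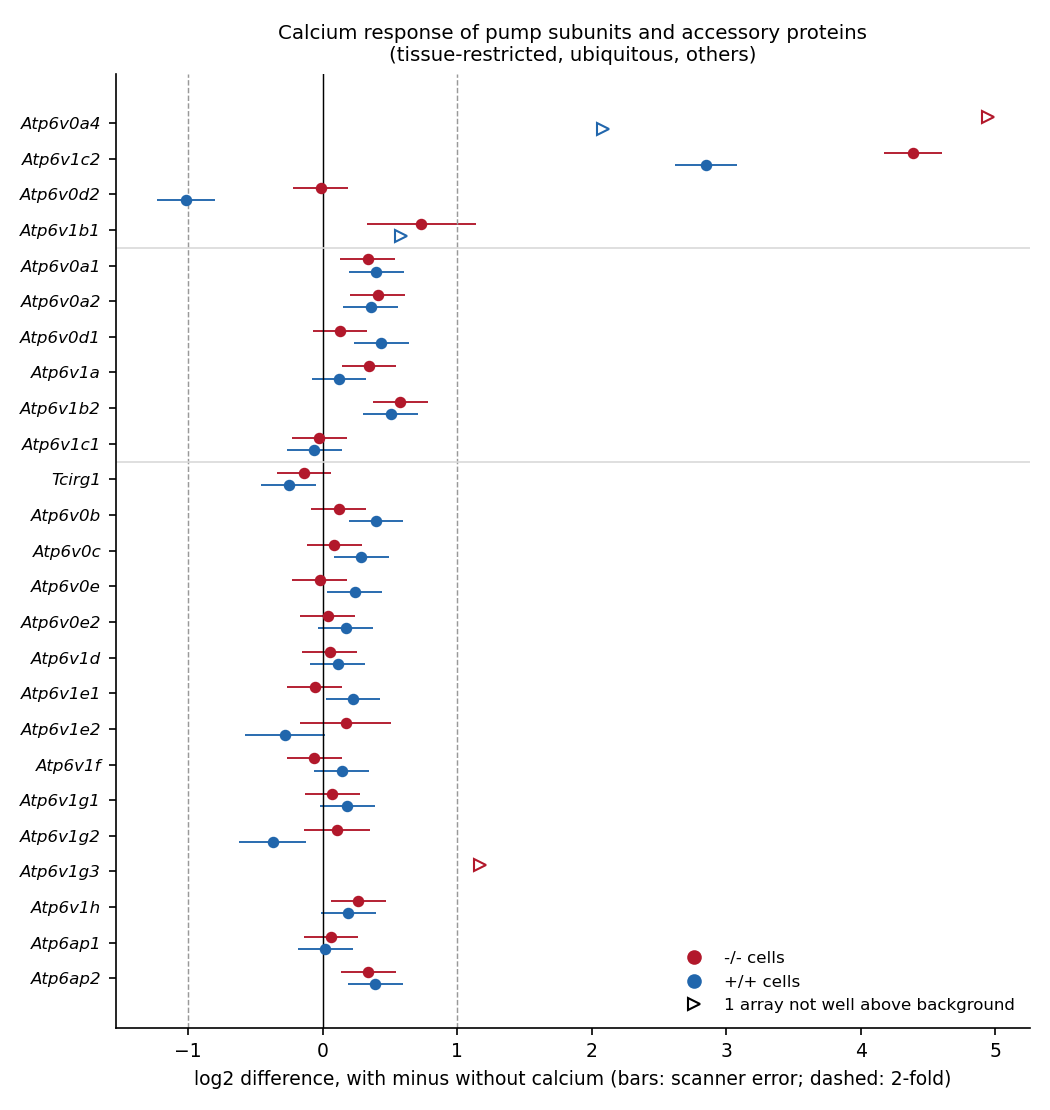
Calcium response (log2, with minus without calcium) of 25 pump genes in -/- and +/+ cells, with scanner error as bars, open triangles where 1 array was not well above background and 2-fold as dashed lines. Atp6v0a4 (at least 4.95 and at least 2.09) and Atp6v1c2 (4.39 and 2.85) stand far to the right, and the ubiquitous subunits lie between -0.06 and 0.58.

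The rest of the pump, 15 further subunits and accessory proteins, showed small responses. Their median calcium response was 0.07 log2 in -/- cells and 0.17 in +/+ cells, with 11 of 15 above 0 in each. The medians of all genes were -0.03 and -0.07. At least 2-fold higher was 1 of 15 in -/- cells and 0 in +/+ cells, where 2.99% and 2.47% of all genes were. The 1 gene was Atp6v1g3, the kidney form of the G subunit. It was dim without calcium in both genotypes and at least 2.25-fold higher with calcium in -/- cells. With normexp correction its difference was 0.26 log2. The a3 form Tcirg1, known from osteoclasts, had responses of -0.14 and -0.25 log2. The proteolipid ring gene Atp6v0c had 0.09 and 0.29, the ring gene Atp6v0b 0.12 and 0.40, and the stalk gene Atp6v1e1 -0.06 and 0.23. The accessory protein Atp6ap2, also called the prorenin receptor, had 0.34 and 0.39. Genes of pump assembly and control included Vma21, Ccdc115, Dmxl1 and the lysosomal factors Tfeb and Tfe3. The median of this list was -0.01 log2 in -/- cells and 0.03 in +/+ cells. Of 21 compared 0 passed 2-fold in either, where 3.59% and 3.48% of all genes did. Nothing is read from the counts of either list.

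**Figure D4:**
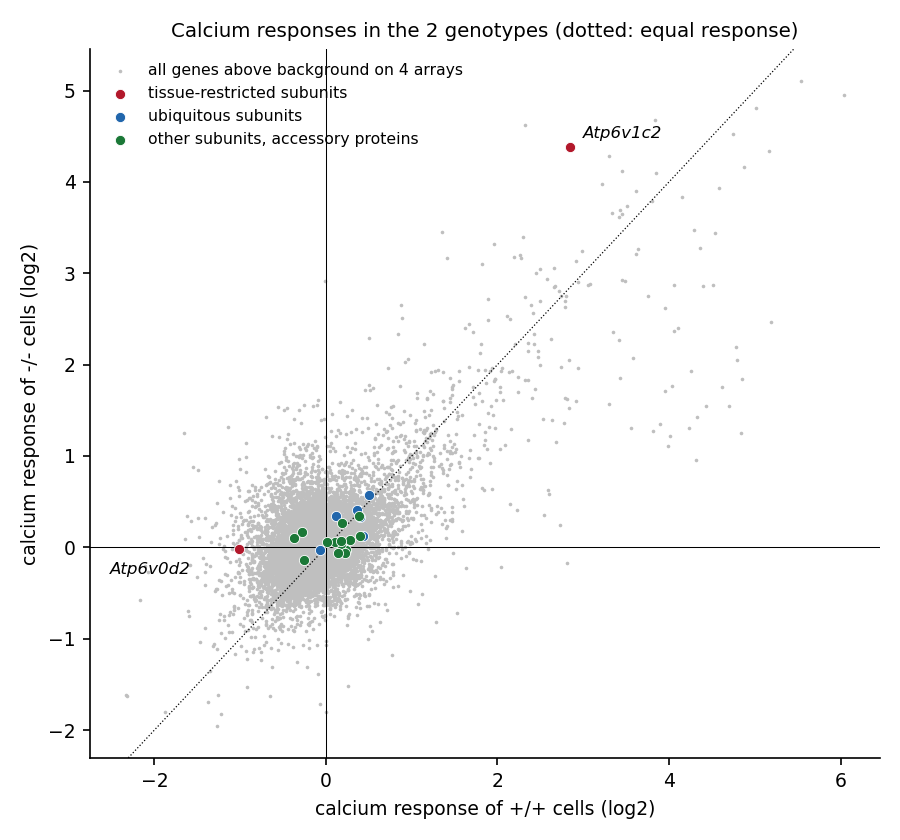
Calcium response of -/- cells (vertical, log2) against that of +/+ cells (horizontal, log2) for the 19227 genes measured on each of the 4 arrays, with pump genes coloured. Atp6v1c2 lies far above the dotted line of equal response at 4.39 and 2.85, Atp6v0d2 lies at -0.01 and -1.02, and the other pump genes plotted sit near the origin. Of 25 pump genes 22 are plotted. Atp6v0a4, Atp6v1b1 and Atp6v1g3 were not well above background on all 4 arrays and are left out.

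Between genotypes with calcium 3 of 10 subunits were at least 2-fold higher in -/- cells and 0 lower, where 6.55% and 3.05% of 21566 genes were (9.6% either way). These were Atp6v0a4, Atp6v1c2 and Atp6v0d2. Without calcium 0 of 9 passed in either direction, where 4.65% and 4.32% of 21346 genes were higher and lower (8.97% either way). The median gene was lower in -/- cells, by 0.16 log2 with calcium and 0.18 without (differences of -0.16 and -0.18). Relative to it the differences with calcium were 2.55 log2 for Atp6v0a4, 1.84 for Atp6v1c2 and 1.64 for Atp6v0d2. The genotype differences share their arrays with the calcium responses and are no separate evidence.

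The remaining pump genes differed little by genotype. The 6 ubiquitous subunits had medians of 0.02 log2 with calcium and 0.06 without, ranging from -0.11 to 0.58 and from -0.32 to 0.64. Directions this small are not stable, since Atp6v1a with calcium was -0.09 log2 and turned to 0.12 with quantile scaling. The 15 other subunits had medians of -0.25 with calcium and -0.12 without. Of these 10 of 15 were below 0 with calcium, and 9 of 15 with quantile scaling. Without calcium 10 of 14 were below 0, against 7 of 14 with quantile scaling. Set against the medians of all genes, -0.16 and -0.18, 6 of 15 lay above with calcium and 10 of 14 without. The lowest without calcium was Atp6v1e2, the testis form of the E subunit, at -0.85 log2, a dim gene for which normexp correction gave -0.48.

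**Figure D5:**
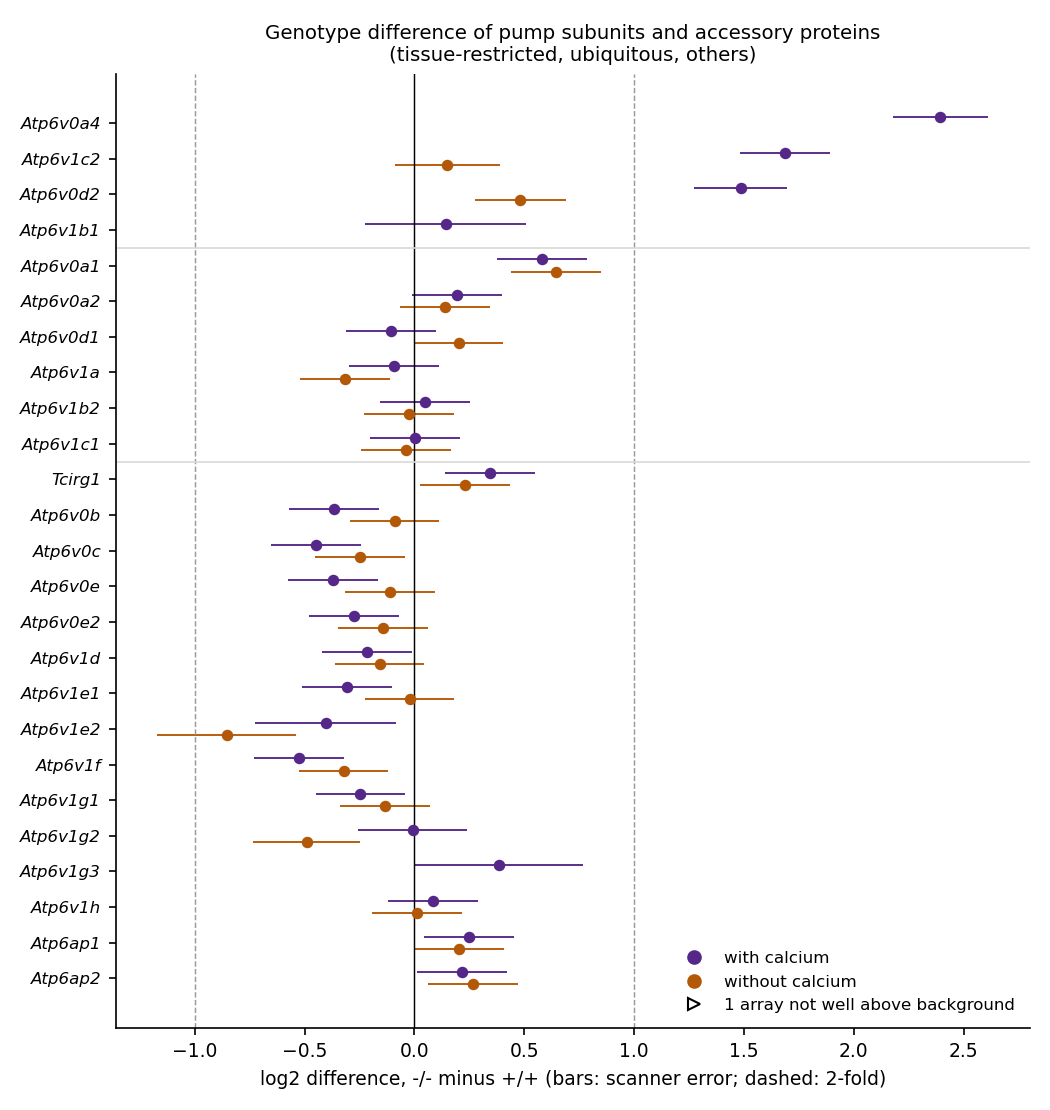
Genotype difference (log2, -/- minus +/+) of 25 pump genes with and without calcium, with scanner error as bars and 2-fold as dashed lines. Atp6v0a4 (2.39), Atp6v1c2 (1.69) and Atp6v0d2 (1.48) pass 2-fold with calcium, and no pump gene does so without.

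The genes with profiles most like the restricted subunits were found by the Euclidean distance between log2 levels over the 4 arrays. Each value was first raised to the limit of its array, and each profile was then centred on its own mean. Candidates had no clone or model name and were well above background on at least the arrays where the subunit was. For Atp6v0a4 they were Ly6g6e (distance 0.36), Atp6v1c2 (0.67) and Rhov (0.98). For Atp6v1c2 they were Psapl1 (0.43), Ly6g6e (0.44) and Ly6g6c (0.57). Ly6g6e was 4.62 log2 higher with calcium in -/- cells and 2.32 in +/+ cells, and 1.90 higher in -/- than in +/+ cells with calcium. For Atp6v0d2 the nearest were Bicc1 (0.12), Hoxa10 (0.13) and Ebf3 (0.17). For Atp6v1b1 they were Erbb3 (0.04), Sdr42e1 (0.13) and Atp6v1b2 (0.14). Each distance rests on 4 arrays and is a description only. For Atp6v0a4 the values of both untreated arrays are the limits and not measured levels.

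Keratinocyte differentiation genes give the setting of the Atp6v0a4 and Atp6v1c2 values. Of 14 such genes 10 were at least 2-fold higher with calcium in -/- cells and 8 in +/+ cells, where 2.99% and 2.47% of all genes were. Their medians were 2.17 and 2.84 log2. With calcium 11 of 14 were lower in -/- than in +/+ cells, with a median of -0.34 log2. The median of all genes was -0.16, and 5 of 14 lay above it. The envelope genes Lor (-1.35), Tgm1 (-1.12) and Cnfn (-1.17) were among the 4 at least 2-fold lower. At least 2-fold higher were 2, the desmosomal genes Cdsn (1.04) and Dsg1a (3.33). Of all genes 3.05% were lower and 6.55% higher by that much. In the same comparison Atp6v0a4 and Atp6v1c2 were above 0, at 2.39 and 1.69.

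The promoters of Atp6v0a4 and Atp6v1c2, which were high on the same arrays, and of Atp6v1b1, which was not, are given for reading side by side. RefSeq sequences were held for 6 of the 10 subunits, and those below are the 250 bases before the start site (GRCm38.p6), written 5′ to 3′ with motif matches in capitals.
Atp6v0a4, chr6:38124587-38124836, minus strand: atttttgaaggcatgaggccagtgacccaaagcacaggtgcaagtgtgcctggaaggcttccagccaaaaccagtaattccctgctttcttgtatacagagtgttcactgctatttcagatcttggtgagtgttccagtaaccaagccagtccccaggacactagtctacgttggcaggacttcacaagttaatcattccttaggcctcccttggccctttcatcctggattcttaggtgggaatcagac
Atp6v1c2, chr12:17324731-17324980, minus strand: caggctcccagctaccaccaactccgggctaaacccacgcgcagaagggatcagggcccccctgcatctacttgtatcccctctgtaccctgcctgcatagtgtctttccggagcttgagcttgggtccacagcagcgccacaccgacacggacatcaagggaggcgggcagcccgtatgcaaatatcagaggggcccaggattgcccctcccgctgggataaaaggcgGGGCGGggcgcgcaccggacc
Atp6v1b1, chr6:83742767-83743016, plus strand: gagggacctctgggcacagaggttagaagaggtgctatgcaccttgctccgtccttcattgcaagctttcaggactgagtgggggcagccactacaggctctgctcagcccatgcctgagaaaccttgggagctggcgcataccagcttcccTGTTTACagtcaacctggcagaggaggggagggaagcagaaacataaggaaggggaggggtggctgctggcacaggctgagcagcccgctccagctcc
The motifs searched on both strands were the E-box core CACGTG, the AP-1 site TGANTCA, the grainyhead site AACCGGTT, the forkhead site GTAAACA, the TATA box TATAAA, the CAAT box CCAAT and the GC box GGGCGG. Of 32851 promoter windows of this length they were found in 6.02%, 6.75%, 0.116%, 3.17%, 12.4%, 33.8% and 32.7%, in that order. The Atp6v0a4 window held none of these, the Atp6v1c2 window 1 GC box and the Atp6v1b1 window 1 forkhead site. A match describes letters only, and a window without one says nothing about the factor.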

How the data were processed

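The 4 deposited scanner files hold an intensity per spot, background-subtracted and detrended within the array per the file headers. The software was Agilent Feature Extraction 11.5.1.1, per the submitters' processing notes. All arrays are on 1 slide. The deposited value table is a ratio, which equals the signal divided by 1 constant per array, within 2.31e-07 in relative terms, and lies within 0.058% of its 75th percentile. RNA of 200 ng was labelled with Cy3, per the labels. Of 43020 non-control spots 105 to 116 per array were marked as outliers and dropped, and no spot was saturated. The log2 signal minus the array's 75th percentile was averaged over spots of a probe, and the brightest probe stood for a gene. Probes were named through their accession (27507) or kept the file's name (11919). Of 186 listed genes 3 were not found. Repeated spots of a probe had a median SD of 0.07 log2, and precision is limited by having 1 array a group. The code was tested on simulated data. Python 3.11.15 and limma 3.58.1 were used. All comparisons are differences between single arrays, counted at 2-fold. Named are all members, the other pump genes, list members that bear on them and the 3 nearest profiles of each restricted subunit. Members and lists were chosen with earlier results of these data known.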

Additional observations from a re-analysis of the deposited data

How the results depend on the processing

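No paired analysis was possible because each group is 1 array. The counts of members past 2-fold were recomputed under 9 alternatives. Higher with calcium in -/- cells were 2, 1 when both arrays had to be well above background, and 3 at 1.5-fold. Higher with calcium in +/+ cells were 2, 1 under that filter or with normexp correction with an offset of 50, and 3 at 1.5-fold. The losses are Atp6v0a4, and the gain at 1.5-fold is Atp6v1b1 (0.73 log2 in -/- and 0.59 in +/+ cells), which lay near the detection limit. Lower with calcium in +/+ cells was 1, Atp6v0d2, and 0 with normexp correction, quantile scaling, median scaling over detected probes, averaging of a gene's probes or a 3-fold threshold, with a value of -0.83 log2 after normexp correction and -1.02 as reported. The response difference was at least 2-fold above 0 for 2, for 1 with normexp correction and with either other scaling, for 0 at 3-fold, and for 3 with no filter and no bounds. Higher in -/- cells without calcium were 0, and 1 with no filter and no bounds (Atp6v0a4) or at 1.5-fold (Atp6v0a1). The count higher in -/- cells with calcium stayed within 1.5 times of 3 under all 9, and no called difference of a pump gene turned its sign. Over all genes the share of higher calls was 83.2% in the -/- response (73.1% with quantile scaling), 70.9% in the +/+ response (84.1% with normexp correction, 44.7% with no filter), 51.8% between genotypes without calcium (77.7% with normexp correction, 74.4% with quantile scaling, 30.9% with no filter) and 75.2% in the response difference (63.3% with normexp correction, 50.4% with quantile scaling).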

Other observations

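Genes of lysosomal enzymes and membrane proteins, which work in the compartments the pump acidifies, were flat with calcium and slightly higher in -/- cells. Of 25 such genes 20 were above 0 with calcium (median 0.27 log2) and 21 without (median 0.27). The medians of all genes were -0.16 and -0.18. With calcium 2 of 25, Hexa (1.07) and Glb1 (1.03), were at least 2-fold higher, where 6.55% of 21566 genes were. That count of 2 was 1 with normexp correction, 1 with median scaling over detected probes and 3 with quantile scaling. It was 0 at 3-fold and 6 at 1.5-fold, and nothing is read from it. With quantile scaling 23 and 22 were above 0. Macrophage markers were higher on the same arrays, and their part was not tested.

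Among 24 other genes of acid and ion transport, 3 of 23 compared were at least 2-fold higher in -/- cells with calcium and 2 of 23 without. Of all genes 6.55% and 4.65% were. The list medians were 0.13 and 0.003 log2. In each calcium response 0 were at least 2-fold higher and 1 was lower, of 23 compared in -/- and 22 in +/+ cells. Of all genes 2.99% and 2.47% were higher, and 0.602% and 1.01% lower. Only genes past 2-fold are named here, and nothing is read from the counts. Carbonic anhydrase 2 (Car2), which supplies protons in acid-secreting cells, read 15.9% and 11.3% in -/- cells with and without calcium, against 5.67% and 4.28% in +/+ cells. It was thus 2.81-fold and 2.65-fold higher in -/- cells. The proton channel Hvcn1 was 2.02-fold higher in -/- cells with calcium and 1.75-fold without. The sodium-proton exchanger Slc9a9 was well above background in -/- cells only, at least 3.40-fold higher with calcium and at least 2.06-fold without. Car12, a membrane-bound carbonic anhydrase, was 2.37-fold lower with calcium in +/+ cells and 1.73-fold lower in -/- cells. The gastric pump subunit Atp4b, at the detection limit, was at least 2.15-fold lower with calcium in -/- cells.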
